A study of Rattus norvegicus with 15 samples.

Results

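The Slc25 genes encode the mitochondrial carrier family, and 40 of them were measured in rat kidneys 4 days after transplantation. The members were all genes whose single symbol on the array begins with Slc25a, which gave 40 of the 14217 genes with such a symbol and 58 of the 31042 probe sets tested. A probe set is the group of short oligonucleotides that reports 1 transcript. For the 12 genes with several probe sets the brightest over all 15 arrays was used, which set 18 probe sets aside, and 2 further probe sets that list Slc25a51 more than once were not included.

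The study compared 3 groups of 5 kidneys with 1 array per kidney, and all rats were male and 10 to 12 weeks old. Lewis-Brown-Norway (LBN) animals gave the native, untreated kidneys of the control group (ctr). In the syngeneic group (sTX) an LBN kidney was placed in an LBN recipient, and in the acute group (aTX) an LBN kidney was placed in a Lewis (LEW) recipient, a model in which the graft is rejected. Recipients of both grafts lost their own kidneys just before surgery, and grafts were removed on the fourth day. The source names of the grafts give other donor and recipient strains, and the series description and methods were followed here. The treatment field of sTX 4 and sTX 5 says allogeneic whereas their titles say syngeneic, so they were kept as sTX and the results for the Slc25a members were repeated without them. By the series description the controls were the second kidneys of the donors. A control and a graft may therefore share a donor, and which ones do is not given.

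Carriers of this family sit mostly in the inner mitochondrial membrane, where they exchange ATP, phosphate, amino acids, organic acids, nucleotides, coenzymes and iron between the cytosol and the matrix. Their proteins share a fold built from repeated units and a pore that opens to 1 side at a time. The tubules of the kidney, above all the proximal tubule, are rich in mitochondria and depend on these exchanges for reabsorption, gluconeogenesis and the handling of ammonia.

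Values are MAS5 signals, the array software's linear brightness of a probe set, which were scaled so that the trimmed mean was 100 on every array. Probe sets differ in brightness for the same amount of RNA, so signals were compared between groups and not between genes. Changes are log2 fold changes from a limma fit with their standard errors, and a gene was called at an adjusted p below 0.05 over all 31042 probe sets. Whole kidneys were measured, so that fewer cells of a type and less RNA per cell cannot be told apart.

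In rejecting grafts most members of the family had lower signals. Of the 40 members, 27 were lower and 4 were higher in aTX than in ctr, and 9 were not called. Among all 14217 genes 27.7% were called lower and 27.7% higher, against 67.5% and 10.0% of the members. The median log2 change was -0.69 over the members and -0.03 over all genes. In 25 members every aTX array lay below every ctr array, which held for 22.3% of all genes. The fall was at least 2-fold in 12 members, and Slc25a24 was the 1 member that rose by that much. The carriers for ATP-Mg held both the deepest fall and the steepest rise among the members.

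In syngeneic grafts fewer members changed. There 12 members were lower and 2 were higher than in ctr, whereas 26 were not called. The share called among all genes was 8.86% lower and 16.1% higher, against 30.0% and 5.0% of the members. The median log2 change was -0.13 over the members and 0.08 over all genes. Set against each other, the grafts differed in 29 members. Of these, 25 were lower and 4 were higher in aTX than in sTX, with a median log2 change of -0.47 over the members and -0.13 over all genes, and 28.4% of all genes were called lower and 19.8% higher.

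The inferred wash runs of the arrays limited the comparison of sTX with ctr. Wash runs were inferred from the clock times of the hybridization date entries in the experiment files, without the day. By these times all ctr arrays and aTX 2, 3 and 4 fell in 1 run, and all sTX arrays with aTX 1 and 5 in another. No run thus held both sTX and ctr. With the run in the model, Slc25a25 remained called lower and Slc25a24 higher in sTX against ctr and the other 12 members were no longer called. In that model sTX and ctr are joined only through the aTX arrays, so a lost call does not show that a change was absent. The log2 change of Slc25a10 went from -0.50 to -0.44, and that of Slc25a42 from -0.56 to -0.01. The same block left 24 members lower and 3 higher in aTX than in ctr, and within the run that held both of these groups the counts were 25 and 3. Within that run, however, ctr 1 to 4 were washed on 1 fluidics station and ctr 5 with aTX 2, 3 and 4 on the other, so that station and group can hardly be told apart there. For aTX against sTX the block left 24 lower and 3 higher, and the shared run alone gave 24 and 3.

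**Figure D1:**
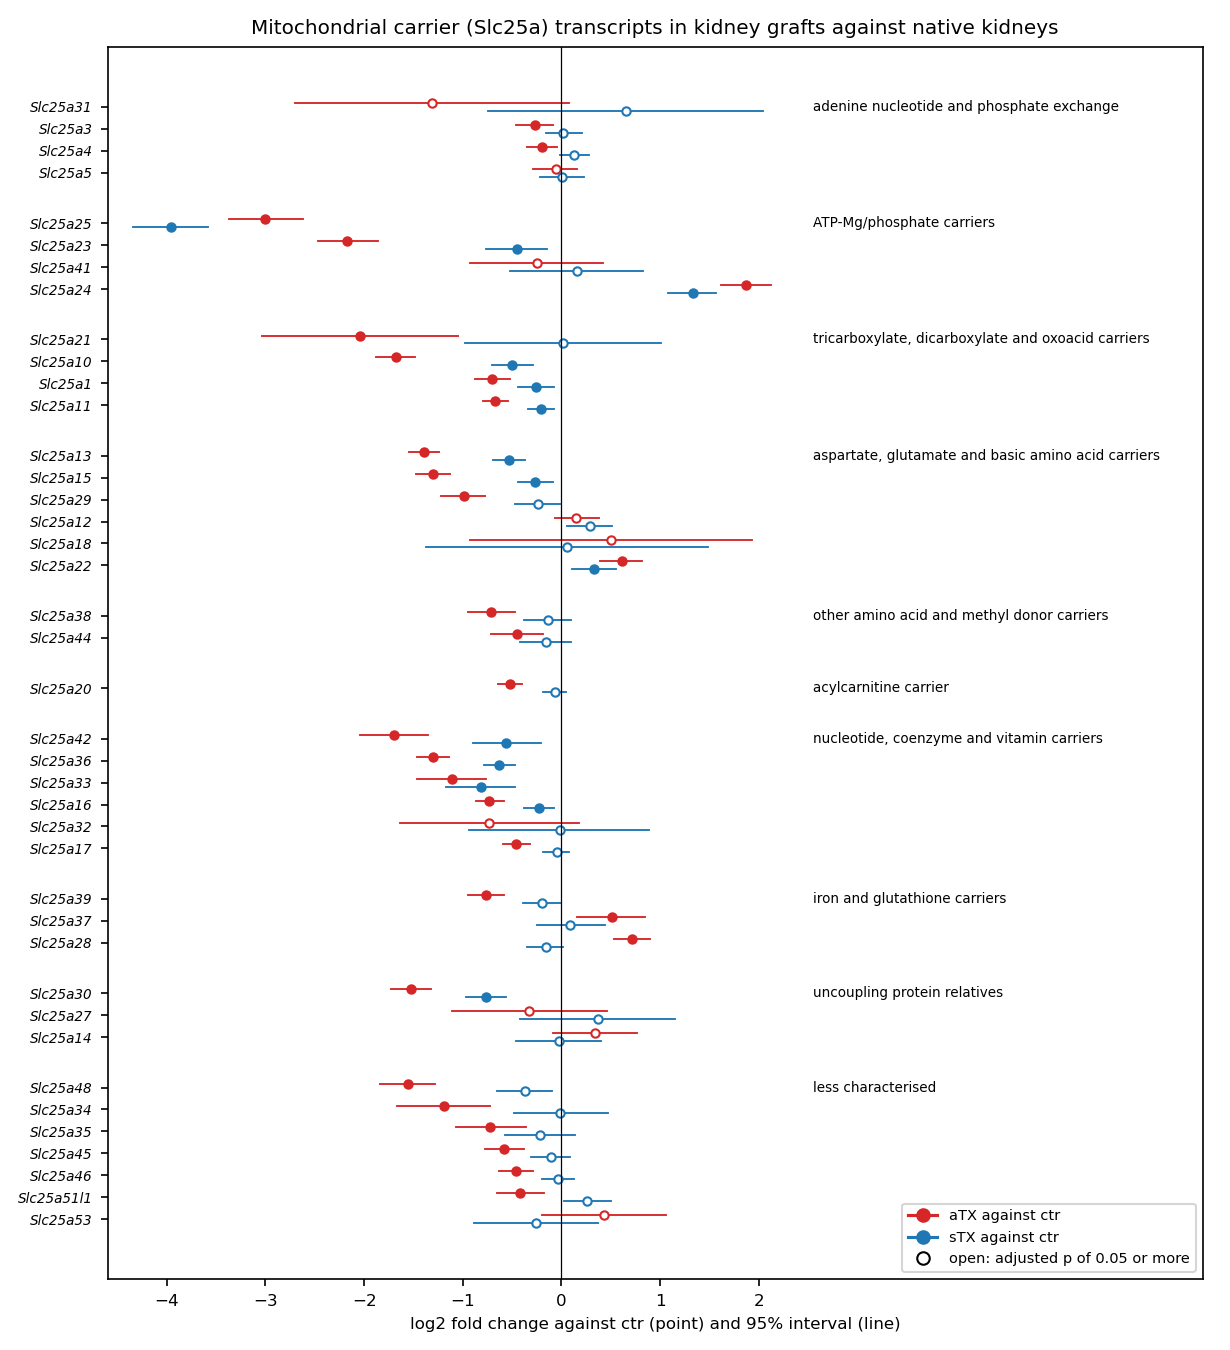
Log2 fold change of each of the 40 members against ctr (x axis) for aTX in red and sTX in blue, by role, with lines for the 95% interval of the limma fit and open points for members that were not called. Most red points lie to the left of 0 and further out than the blue ones, Slc25a25 is the member whose fall is deeper in sTX than in aTX, and Slc25a24 lies far to the right in both.

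The ATP-Mg carriers exchange ATP-Mg for phosphate and thereby set the adenine nucleotide content of the matrix, and Slc25a23, Slc25a24 and Slc25a25 are regulated by calcium through a domain that Slc25a41 lacks. Of the 4 genes measured, Slc25a25 and Slc25a23 fell, Slc25a24 rose and Slc25a41 was not called in aTX against ctr.

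Slc25a25 (SCaMC-2) was the member with the largest change in both grafts. Its signals were 837.5, 715.9, 912.9, 697.1 and 384.4 in ctr 1 to 5. In sTX they were 51.0, 51.7, 48.1, 37.8 and 33.8, and in aTX 83.0, 102.6, 72.6, 89.2 and 82.2. Every graft lay far below every native kidney, and every aTX graft lay above every sTX graft. Against ctr the signal was 15.5-fold lower in sTX (log2 change -3.96 ± 0.18, SE, adjusted p = 8.36e-11) and 7.98-fold lower in aTX (-3.0 ± 0.18, adjusted p = 3.53e-11). Rejecting grafts held 1.95 times the sTX signal (adjusted p = 0.000233), so that the syngeneic kidneys were the lower of the grafts here. After blocking on the wash run the log2 changes were -3.88 in sTX (adjusted p = 3.7e-06) and -2.96 in aTX (adjusted p = 1.76e-09), and the aTX kidneys remained above the sTX kidneys by 0.91. The lowest control, ctr 5, was also the control that shared its fluidics station with aTX 2, 3 and 4. Without it the log2 changes were -4.16 in sTX and -3.20 in aTX.

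Slc25a23 (SCaMC-3) read 484.4, 373.8, 379.4, 451.4 and 447.9 in ctr. In sTX it read 321.1, 235.4, 305.8, 321.1 and 388.6, and in aTX 64.0, 99.4, 107.9, 90.3 and 122.5. All 5 rejecting grafts were below all other kidneys, and sTX 5 overlapped with the controls. The signal was 4.49-fold lower in aTX than in ctr (log2 change -2.17 ± 0.15, adjusted p = 1.65e-10) and 3.28-fold lower than in sTX (adjusted p = 1.1e-08). The fall from ctr to sTX was small (-0.45 ± 0.15, adjusted p = 0.0353). It was no longer called when the wash run was added to the model (-0.29, adjusted p = 0.651). Of its 2 dimmer probe sets, 1 was not called between aTX and sTX.

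Slc25a24 (SCaMC-1) ran the opposite way. Its signals were 85.6, 80.8, 83.2, 75.1 and 66.1 in ctr. In sTX they were 216.4, 228.8, 211.5, 183.2 and 147.5, and in aTX 359.4, 263.9, 265.4, 248.3 and 300.4. The groups did not overlap, with native kidneys lowest, syngeneic grafts between and rejecting grafts highest. The signal rose 2.51-fold in sTX (log2 change 1.33 ± 0.12, adjusted p = 1.68e-07) and 3.66-fold in aTX (1.87 ± 0.12, adjusted p = 7.53e-11), and it was 1.46-fold higher in aTX than in sTX (adjusted p = 0.000972). After blocking on the wash run the rise in sTX was 0.98 (adjusted p = 0.00601). Slc25a41, at group geometric means of 13.8, 15.4 and 11.6 in ctr, sTX and aTX, was dim in every group and was not called.

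**Figure D2:**
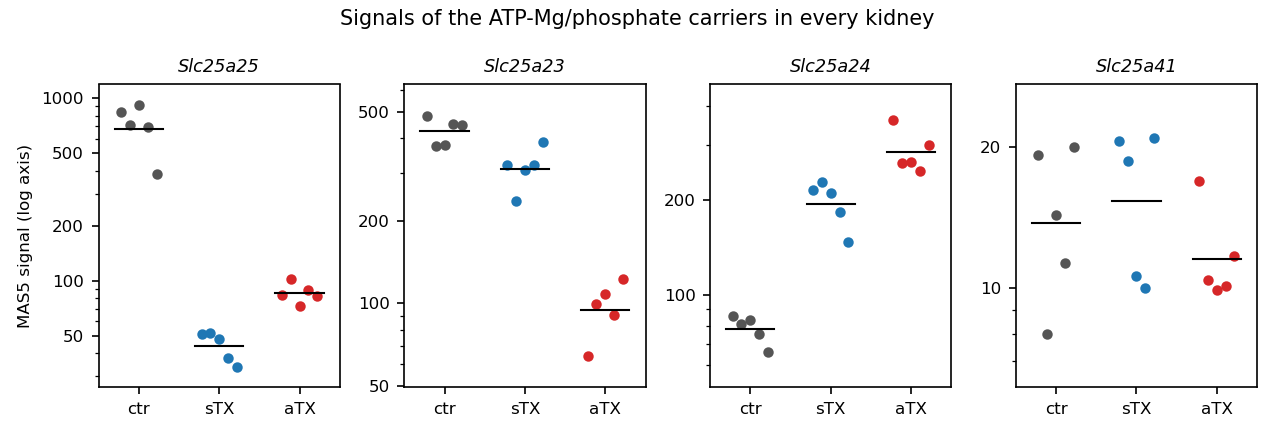
MAS5 signals on a log axis of the 4 ATP-Mg carriers in every kidney of ctr, sTX and aTX, where points are arrays and lines are geometric means. Slc25a25 falls from 681.2 to 43.9 in sTX and 85.4 in aTX and Slc25a24 rises from 77.8 to 195.1 and 284.9, whereas Slc25a23 drops mainly in aTX and Slc25a41 overlaps between all groups.

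The promoters of 3 members are shown. Slc25a25 fell most in both grafts and Slc25a24 rose in both. Slc25a33 also fell in both, and it was the only other member matched whose window held TGACGTCA, the full cAMP response element. The windows are the 250 bases before the RefSeq transcript start on build GRCr8, read 5′ to 3′ on the strand of the gene. TGACGTCA and TGACG (its partial site) are in capitals. Slc25a25 lies on the minus strand at chr3:36116582-36116831, Slc25a33 on the minus strand at chr5:165502974-165503223 and Slc25a24 on the plus strand at chr2:199449175-199449424.
Slc25a25: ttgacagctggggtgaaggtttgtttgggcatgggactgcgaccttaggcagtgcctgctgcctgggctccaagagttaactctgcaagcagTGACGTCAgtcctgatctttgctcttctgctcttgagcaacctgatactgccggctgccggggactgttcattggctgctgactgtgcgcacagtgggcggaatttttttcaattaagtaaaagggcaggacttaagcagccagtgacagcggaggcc
Slc25a33: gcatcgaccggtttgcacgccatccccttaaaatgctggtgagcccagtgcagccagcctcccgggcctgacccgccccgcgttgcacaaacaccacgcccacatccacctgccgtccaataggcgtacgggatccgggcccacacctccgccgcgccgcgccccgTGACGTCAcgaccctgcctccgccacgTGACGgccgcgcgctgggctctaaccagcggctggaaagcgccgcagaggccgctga
Slc25a24: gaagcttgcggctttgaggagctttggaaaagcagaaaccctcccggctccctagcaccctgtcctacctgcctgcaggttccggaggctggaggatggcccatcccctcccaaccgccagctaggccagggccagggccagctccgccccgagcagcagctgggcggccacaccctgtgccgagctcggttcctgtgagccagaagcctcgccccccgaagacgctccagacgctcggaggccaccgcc

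The full element TGACGTCA, a palindrome to which the cAMP-responsive factor CREB is known to bind, was found in 2 of the 34 members with a promoter window. It stood 158 to 151 bases before the start of Slc25a25 and 84 to 77 bases before that of Slc25a33, the members with the deepest and the next deepest called fall in sTX against ctr. That rank of Slc25a33 rests on the model without the wash run, since with it the log2 change of Slc25a33 was -0.56 (adjusted p = 0.383) and that of Slc25a30 was -0.61. Of all 33465 windows of this length 1.59% held it, against 5.88% of the 34. Each member was counted by a single window, the first by position on the chromosome, whereas the full set of windows was not reduced in this way. The partial site TGACG, searched on both strands and contained in each full element, was in 8 of the 34 (23.5%) and in 18.2% of all windows. The palindrome known for NRF1, a regulator of nuclear genes for mitochondria, was in 0 of the 34 and 0.762% of all windows, and AAGGTCA, a site of oestrogen-related receptors, was in 1 (Slc25a34) and 3.99%. The motifs were chosen after the promoter of Slc25a25 and its values had been seen, so the match in Slc25a25 was fixed in advance. The share of 5.88% therefore cannot show that the family holds the element more often. The GC content was 54.4% in the window of Slc25a25 and 70.0% in that of Slc25a33, with a median of 51.2% over all windows. A match is a description of letters and does not show that a factor was bound.

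The carriers of tricarboxylates, dicarboxylates and oxoacids link the citric acid cycle to gluconeogenesis, lipid synthesis and the malate-aspartate shuttle. All 4 measured genes were lower in aTX than in ctr, where 27.7% of all genes were called lower. In each of the 4 every aTX array lay below every ctr and every sTX array. Slc25a10, which exchanges malate and succinate for phosphate, read 1146.5, 1030.1, 1299.6, 1183.2 and 1313.9 in ctr. It read 717.9, 765.1, 852.1, 972.5 and 941.0 in sTX and 311.9, 400.1, 362.9, 373.0 and 422.7 in aTX. The 3 groups stood in 3 steps without overlap. The signal was 3.20-fold lower in aTX than in ctr (log2 change -1.68 ± 0.10, adjusted p = 1.66e-11) and 2.27-fold lower than in sTX (adjusted p = 6.35e-09). The fall of 0.50 in sTX (adjusted p = 0.001) was no longer called after blocking on the wash run (log2 change -0.44, adjusted p = 0.209).

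The citrate carrier Slc25a1 fell 1.63-fold and the oxoglutarate carrier Slc25a11 fell 1.59-fold in aTX against ctr, and both were also called lower in aTX than in sTX. The oxodicarboxylate carrier Slc25a21 was dim, with 35.8, 33.9, 39.2, 30.5 and 30.6 in ctr and 9.6, 1.3, 13.2, 13.6 and 16.7 in aTX. Array aTX 2 set much of the size of its fall, since the log2 change was -2.04 with it and -1.38 without it (adjusted p = 1.61e-05). Its sTX signals, from 27.5 to 42.1, overlapped with those of ctr.

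Carriers of aspartate, glutamate and basic amino acids serve the malate-aspartate shuttle, the urea cycle and the breakdown of glutamine to ammonia. Of 6 measured genes 3 were lower, 1 was higher and 2 were not called in aTX against ctr, beside 27.7% of all genes in each direction. Citrin (Slc25a13) and aralar (Slc25a12) carry out the same exchange of aspartate for glutamate. Slc25a13 read 1000.1, 1129.8, 826.8, 1042.4 and 1096.7 in ctr. It read 668.7, 693.5, 729.4, 706.5 and 717.1 in sTX and 349.2, 397.0, 378.0, 401.1 and 404.4 in aTX. The 3 groups were again separate, with a 2.63-fold fall in aTX (log2 change -1.39 ± 0.08, adjusted p = 7.43e-12) and a 1.44-fold fall in sTX (-0.53 ± 0.08, adjusted p = 4.65e-05). After blocking on the wash run the latter was -0.47 (log2) with an adjusted p of 0.0666. Slc25a12 was not called in any comparison, and its log2 change in aTX against ctr was 0.15 with a 95% interval from -0.07 to 0.38.

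The ornithine carrier Slc25a15 read 533.9, 662.7, 513.4, 520.6 and 556.7 in ctr. In sTX it read 423.2, 450.1, 506.1, 450.7 and 480.9, and in aTX 203.8, 214.8, 228.3, 217.3 and 265.1. Rejecting grafts lay far below all other kidneys, a 2.47-fold fall from ctr (log2 change -1.30 ± 0.08, adjusted p = 6.77e-11) and a 2.05-fold fall from sTX. Of its 5 dimmer probe sets, 4 gave log2 changes from -1.43 to -1.14 in aTX against ctr and the faintest was not called. Slc25a29, a carrier of basic amino acids, fell 1.99-fold in aTX (adjusted p = 1.68e-07).

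The glutamate carrier Slc25a22 was higher in grafts. Its signals were 74.9, 68.1, 90.5, 69.7 and 72.8 in ctr. They were 96.5, 81.0, 93.7, 104.9 and 94.9 in sTX and 100.1, 104.5, 135.5, 122.1 and 110.4 in aTX. Rejecting grafts lay above all controls, a 1.52-fold rise (log2 change 0.61 ± 0.10, adjusted p = 6.19e-05), whereas sTX 2 lay below ctr 3. The 1.25-fold rise in sTX (adjusted p = 0.0336) and the difference between the grafts (1.21-fold, adjusted p = 0.0426) were both no longer called on leaving out single arrays. With the wash run in the model neither was called, at log2 changes of 0.52 (adjusted p = 0.141) and 0.16 (adjusted p = 0.441). Slc25a18, the other glutamate carrier, had signals of at most 12.7 in all kidneys and was not called.

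Carriers of nucleotides, coenzymes and vitamins were lower in 5 of 6 measured genes in aTX against ctr, beside 27.7% of all genes. Slc25a42 imports coenzyme A. It read 123.5, 111.0, 144.8, 95.6 and 124.8 in ctr and 78.6, 60.6, 76.7, 83.6 and 112.4 in sTX. Its aTX signals were 28.7, 37.9, 47.5, 43.1 and 29.6, all below those of the other kidneys. It fell 3.24-fold in aTX (log2 change -1.70 ± 0.16, adjusted p = 3.72e-08). In sTX the log2 change was -0.56 (adjusted p = 0.023), but -0.01 after blocking on the wash run.

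The pyrimidine nucleotide carriers Slc25a36 and Slc25a33 were both lower in aTX and in sTX than in ctr. Slc25a36 read 695.1, 627.9, 572.5, 625.7 and 587.9 in ctr. In sTX it read 388.6, 420.1, 364.3, 398.1 and 442.8, and in aTX 225.1, 257.8, 268.3, 283.8 and 231.0. The groups did not overlap, and the falls were 1.54-fold in sTX (adjusted p = 8.21e-06) and 2.46-fold in aTX (adjusted p = 2.67e-11). Slc25a33 read 103.7, 103.3, 129.2, 94.8 and 80.2 in ctr. In sTX it read 62.9, 59.3, 45.2, 43.8 and 83.8, and in aTX 36.4, 46.1, 54.6, 50.3 and 48.4. Here sTX 5 lay above ctr 5, and the grafts overlapped with each other. The fall of Slc25a33 was 1.76-fold in sTX (adjusted p = 0.00157) and 2.16-fold in aTX (adjusted p = 1.27e-05), and the difference between grafts was not called (log2 change -0.29 ± 0.17, adjusted p = 0.191). In sTX neither Slc25a36 nor Slc25a33 was called once the wash run was in the model (log2 changes -0.38 and -0.56, adjusted p = 0.0943 and 0.383).

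Slc25a16 fell 1.65-fold and the peroxisomal carrier Slc25a17 fell 1.37-fold in aTX against ctr. The folate carrier Slc25a32 was dim, with signals of at most 15.7, and was not called. The acylcarnitine carrier Slc25a20, which brings fatty acids to the matrix for oxidation, fell 1.44-fold in aTX (log2 change -0.52 ± 0.06, adjusted p = 2.61e-07). Its sTX signals, from 326.8 to 345.7, lay within those of ctr, from 318.8 to 373.7.

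**Figure D3:**
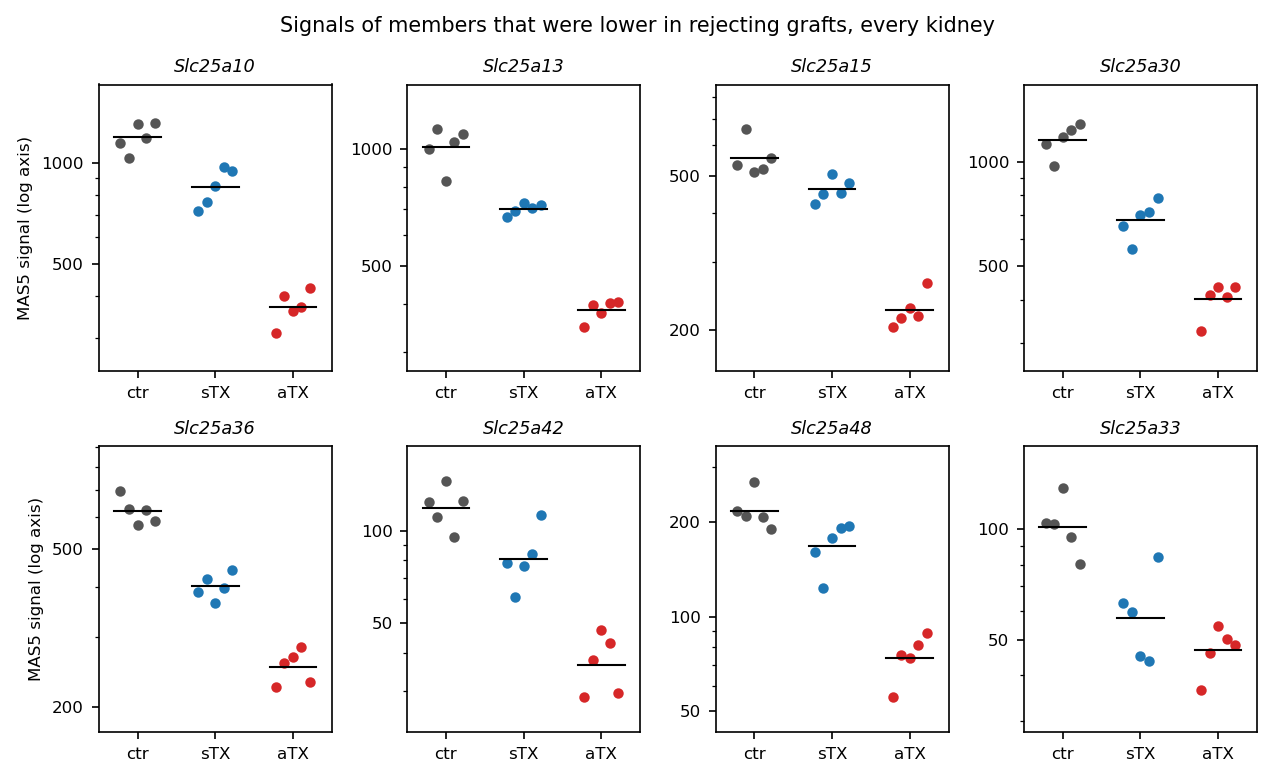
MAS5 signals on log axes of 8 members that were lower in aTX than in ctr, with a point for each kidney and a line for each geometric mean. In Slc25a10, Slc25a13, Slc25a30 and Slc25a36 the groups form 3 separate steps from ctr to sTX to aTX, in Slc25a15, Slc25a42 and Slc25a48 the sTX kidneys overlap with ctr or lie close to it, and in Slc25a33 sTX overlaps with aTX.

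Among the relatives of the uncoupling proteins, Slc25a30 (KMCP1, named after its abundance in kidney) fell. It read 1126.0, 973.4, 1178.6, 1232.6 and 1282.2 in ctr. In sTX it read 651.1, 560.8, 702.3, 714.8 and 788.4, and in aTX 325.0, 413.9, 435.3, 407.3 and 437.0. The 3 groups were separate, with a 1.70-fold fall in sTX (log2 change -0.76 ± 0.10, adjusted p = 1.38e-05) and a 2.87-fold fall in aTX (-1.52 ± 0.10, adjusted p = 9.28e-11). The fall in sTX was not called after blocking on the wash run (log2 change -0.61, adjusted p = 0.0591). Slc25a14 and Slc25a27, known mainly from brain, were dim and not called.

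Of 7 less characterised members 6 were lower in aTX than in ctr and 0 were called in sTX. Among all genes 27.7% were called lower in aTX, and 8.86% lower and 16.1% higher in sTX. Slc25a48 had the largest change of the 7 members. Its signals were 216.9, 209.7, 270.2, 208.5 and 190.6 in ctr. They were 161.5, 123.8, 178.0, 192.5 and 194.7 in sTX and 55.4, 75.3, 73.5, 81.3 and 88.7 in aTX. Rejecting grafts were below all others, whereas sTX 4 and 5 overlapped with ctr. The fall in aTX was 2.94-fold (log2 change -1.56 ± 0.13, adjusted p = 6.12e-09), and the change in sTX was not called (-0.37 ± 0.13, adjusted p = 0.0591). The others called were Slc25a34 (2.28-fold, dim), Slc25a35 (1.64-fold), Slc25a45 (1.49-fold), Slc25a46 of the outer membrane (1.38-fold) and Slc25a51l1 (1.34-fold). Slc25a46 had a second probe set that was not called (log2 change 0.17). Slc25a53 was not called.

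The glycine carrier Slc25a38, which supplies haem synthesis, fell 1.63-fold in aTX, and Slc25a44, a carrier of branched-chain amino acids, fell 1.37-fold (adjusted p = 0.00557, but 0.0633 when the wash run was added to the model).

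The iron carriers moved against the family. Slc25a28 (mitoferrin-2) and Slc25a37 (mitoferrin-1) import iron for haem and iron-sulphur clusters. Slc25a28 read 185.2, 170.1, 203.6, 154.6 and 156.6 in ctr. In sTX it read 167.0, 137.6, 136.5, 169.3 and 167.3, and in aTX 310.8, 289.4, 277.0, 264.2 and 279.0. Rejecting grafts lay above all other kidneys, and the remaining groups overlapped. It rose 1.64-fold against ctr (log2 change 0.71 ± 0.09, adjusted p = 1.19e-06) and 1.83-fold against sTX (0.87 ± 0.09, adjusted p = 1.41e-07), and was not called in sTX against ctr. Slc25a37 read 49.3, 40.6, 38.3, 32.1 and 50.9 in ctr and 75.5, 48.6, 60.5, 63.7 and 51.6 in aTX. Its groups overlapped, and the rise was 1.42-fold (adjusted p = 0.0168). The rise was no longer called after blocking on the wash run (log2 change 0.46, adjusted p = 0.0724), without ctr 4 (adjusted p = 0.0539) and without aTX 1 (adjusted p = 0.0559). Slc25a39, which imports glutathione, fell 1.70-fold in aTX against ctr (log2 change -0.76 ± 0.09, adjusted p = 5.56e-07), while its dimmer probe set was not called.

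The carriers through which ATP leaves and phosphate enters the matrix changed little. The adenine nucleotide translocator Slc25a5 read 3949.5, 3500.5, 3568.6, 4425.8 and 4657.0 in ctr and 3538.1, 4147.4, 4099.0, 4156.0 and 3278.2 in aTX. It was not called in any comparison, and the 95% interval of its log2 change in aTX against ctr ran from -0.29 to 0.16. The other translocator of kidney, Slc25a4, was 1.15-fold lower in aTX than in ctr (log2 change -0.20 ± 0.07, adjusted p = 0.0289), and the phosphate carrier Slc25a3 was 1.21-fold lower (-0.27 ± 0.09, adjusted p = 0.0171). Blocking on the wash run ended both calls, at adjusted p values of 0.0951 and 0.106. So did leaving out ctr 5, and for Slc25a4 also ctr 3, aTX 4 or aTX 5, each on its own. Both were also lower in aTX than in sTX, with log2 changes of -0.33 for Slc25a4 (adjusted p = 0.000775) and -0.29 for Slc25a3 (adjusted p = 0.0126). These 2 calls remained with the wash run in the model, at -0.36 (adjusted p = 0.00611) and -0.39 (adjusted p = 0.0136). That of Slc25a3 was lost with median centring and without sTX 4 and 5. Slc25a31, the translocator of testis, had signals of at most 14.1 and was called lower in aTX than in sTX alone (adjusted p = 0.0251), a call that ended on leaving out sTX 1, sTX 2 or aTX 2.

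**Figure D4:**
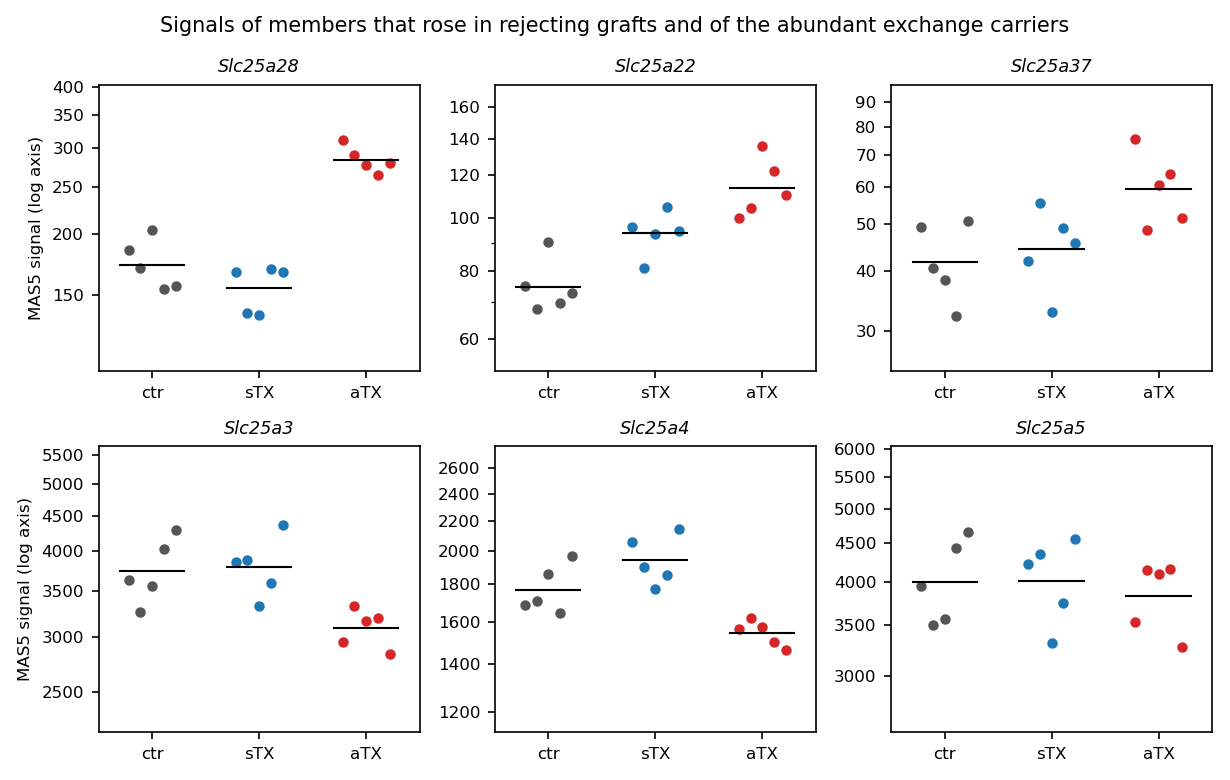
MAS5 signals on log axes of 3 members that were higher in aTX than in ctr (Slc25a28, Slc25a22 and Slc25a37) and of the 3 exchange carriers Slc25a3, Slc25a4 and Slc25a5, with a point for each kidney and a line for each geometric mean. Slc25a28 is higher in aTX alone, Slc25a22 steps up from ctr to sTX to aTX with overlap, and the geometric means of Slc25a5 lie between 3825.7 and 4010.5 in the 3 groups.

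Genes around the carriers were examined as lists. Of 15 measured genes of the import machinery that brings carrier proteins into the membrane, 5 were higher and 4 lower in aTX against ctr, with a median log2 change of 0.02, and these shares are near the 27.7% of all genes called in each direction. After blocking on the wash run 2 of them were still higher and 3 lower. Tomm5, a small subunit of the outer membrane translocase, rose 1.76-fold, and the receptor Tomm20 and the chaperone Timm8b fell 1.29-fold and 1.47-fold. In sTX against ctr 4 of the 15 were higher, Tomm5 among them (1.33-fold), and 0 were lower, beside 16.1% and 8.86% of all genes. With the wash run in the model 0 of these 4 calls remained.

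The list of other carriers and channels of the mitochondrial membranes also held enzymes, the carnitine acyltransferases Cpt1a, Cpt1b, Cpt2 and Crat. Of its 16 genes 8 were lower and 0 higher in aTX against ctr (median -0.52), where 27.7% of all genes were called in each direction. The lower genes were these acyltransferases, Mpc1, Mpc2, Letm1 and Vdac1, so the count does not describe carriers and channels alone. The carnitine palmitoyltransferases Cpt1a and Cpt1b, which make the acylcarnitines that Slc25a20 carries, fell 1.89-fold and 2.81-fold, and the carnitine acetyltransferase Crat fell 2.08-fold. In sTX against ctr 2 of the 16 were lower and 0 higher (median -0.09), beside 8.86% and 16.1% of all genes. Cpt1a was 1.22-fold lower there. With the wash run in the model 0 of these calls remained.

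Of 18 enzymes that work with the carriers 11 were lower and 1 was higher in aTX against ctr (median -0.33), beside 27.7% of all genes in each direction. In sTX against ctr 6 were lower and 2 higher (median -0.16), beside 8.86% and 16.1% of all genes, and 0 of the 8 calls remained with the wash run in the model. Gpd1, of the glycerophosphate shuttle, fell 3.71-fold in aTX, the gluconeogenic enzyme Pck1 fell 2.23-fold and glutamate dehydrogenase Glud1 fell 1.90-fold.

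Of 16 mitochondrial reference genes, such as subunits of the respiratory chain, 9 were lower and 1 was higher in aTX against ctr (median -0.29), beside 27.7% of all genes in each direction. Ppargc1a, a coactivator of mitochondrial biogenesis, fell 1.92-fold, the complex I subunit Ndufs1 fell 1.53-fold and the chaperone Hspa9 fell 1.46-fold. In sTX against ctr Hspa9 alone was lower and 0 were higher (median -0.05), beside 8.86% and 16.1% of all genes. Hspa9 was not called with the wash run in the model (adjusted p = 0.285).

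**Figure D5:**
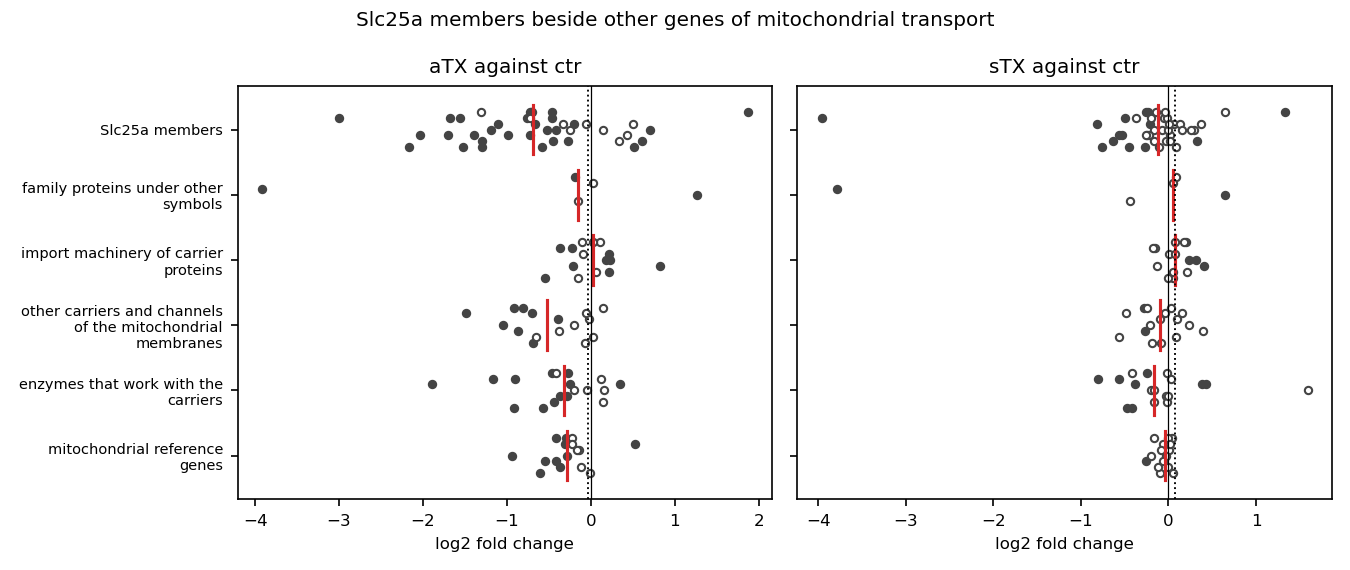
Log2 fold change (x axis) of each gene of 6 lists in aTX against ctr and in sTX against ctr, with filled points for called genes, open points for others, a red bar at the median of each list and a dotted line at the median of all 14217 genes. In aTX the median of the Slc25a members lies at -0.69, that of the import machinery at 0.02 and that of the mitochondrial reference genes at -0.29.

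Proteins of the family that carry other symbols were measured for 5 genes. Ucp2 rose 1.55-fold in sTX (adjusted p = 0.000806) and 2.41-fold in aTX (adjusted p = 2.81e-08). The rise in sTX was no longer called when the wash run was added to the model (adjusted p = 0.267). Mtch1 fell 1.14-fold in aTX (adjusted p = 0.0154, and 0.0507 when the wash run was added to the model), and Mtch2 and Ucp3 were not called. Ucp1, the uncoupling protein of brown fat, read 46.7, 62.9, 269.8, 29.7 and 40.6 in ctr. It read at most 7.6 in sTX and at most 6.6 in aTX, so that it was called lower in both (adjusted p = 0.000115 and 1.31e-05), though not in sTX after blocking on the wash run (adjusted p = 0.0943). The control that stood highest, ctr 3, was also the highest control for the fat genes Fabp4 (240.9, against 59.1 to 71.9 in the other controls), Cox8b (98.1, against 12.7 to 24.5) and Plin1 (40.0, against 5.6 to 10.5), which were looked at after these values had been seen. This also held for Cidea and Adipoq, but not for Elovl3 and Lep, which read at most 7.7 in all controls. In sTX Fabp4 read 56.9 to 99.4 and Plin1 10.7 to 18.6, neither of them below the other controls, unlike Ucp1. Cidea and Adipoq in sTX overlapped with the controls. Cox8b, like Ucp1, lay below every control in both grafts, at 0.7 to 7.8 in sTX and 0.6 to 3.5 in aTX. In aTX Fabp4, Cidea and Adipoq also lay below every control, and Plin1 overlapped. The part of adipose tissue in the Ucp1 signals was not tested. Slc25a25 and Slc25a33 were also highest in ctr 3 among the controls, and without that array their log2 changes were -3.85 and -0.73 in sTX and -2.89 and -1.02 in aTX.

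Signals of cell type markers and a measure of RNA integrity differed between the groups. Of 9 proximal tubule markers 8 were lower in aTX than in ctr (median log2 change -1.09), and their summed signal ran from 15851.1 to 21002.3 in ctr, 14043.5 to 16523.9 in sTX and 6659.7 to 8607.1 in aTX. All 4 thick limb, 6 of 8 distal tubule and collecting duct, 4 of 4 podocyte and 4 of 4 endothelial markers were also lower in aTX. Among all genes 27.7% were called lower and 27.7% higher in aTX against ctr, and 8.86% and 16.1% in sTX against ctr. All 7 T cell markers were higher in aTX, with sums from 81.3 to 136.7 in ctr, 143.1 to 238.4 in sTX and 1363.9 to 2209.0 in aTX. All 6 macrophage markers rose as well, from 1728.2 to 2219.1 in ctr to 6415.3 to 8647.4 in aTX, with 2749.9 to 3977.4 in sTX. All 6 cell division markers were higher in both grafts, with 104.9 to 144.8 in ctr, 593.2 to 1086.2 in sTX and 977.0 to 1091.5 in aTX. The tubule markers Lrp2, Slc34a1, Umod and Aqp2 had geometric means of at least 698.9 in every group. Pvalb, of the distal tubule, was at 1.44, 2.81 and 1.69 in ctr, sTX and aTX, and no list had all of its markers at such a level. The ratio of 3′ to 5′ signal of actin, a measure of RNA integrity, was 1.54 to 1.98 in ctr, 1.45 to 1.61 in sTX and 1.14 to 1.29 in aTX. The part of cell composition and of RNA quality in the changes of the carriers was not tested.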

How the data were processed

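The data were Affymetrix rat expression arrays of 15 kidneys, 5 per group. The authors deposited 1 MAS5 signal intensity per probe set and array on a linear scale, already background-corrected and scaled, and per the study's methods outlying areas of the arrays were masked before this step. The methods name a scaling to a common arithmetic mean, whereas the deposited signals share a trimmed mean of 100. Signals were converted to log2 here. The 54 signals of 0 were set to 0.05, below the lowest other signal, and 57 control probe sets were left out. Probe sets were named with the platform annotation, of which 20826 have 1 symbol, 436 several and 9780 none. Samples were grouped by their titles.

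All 31042 probe sets were fitted in 1 model of 3 groups with limma 3.58.1 (R 4.3.3), an empirical Bayes fit with an intensity trend, and p-values were adjusted by Benjamini-Hochberg. The study's methods used a 2-group test at an unadjusted p of 0.001, which was run as an alternative and is called the methods' t-test. The fit was also run on simulated data with independent noise and far fewer changes than were called here. That run checks the code and not the calls. Tables and plots were made with Python 3.11.15, pandas 2.3.3, numpy 2.4.6 and matplotlib 3.10.9. The number of arrays limits the precision, and signals under 50 are called dim. Nothing says how RNA extraction was divided. Wash runs were inferred from the clock times of the hybridization date entries in the experiment files, where a gap between times started a new run. The day was not used. Fluidics stations were read from the same files, and 0 columns of other samples were present.

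The members and gene lists were chosen with earlier results of these data known. Array values are given for called members with a group geometric mean of at least 50 and the largest changes, at most 8 per direction between aTX and ctr and 6 per direction in each other comparison. Up to 3 called genes were named from each related list. Other values from single arrays (Slc25a21, Slc25a5) and the fat genes were chosen after they were seen. Promoters came from RefSeq, build GRCr8, and 34 of 40 members matched. Coordinates are given for these promoter windows alone, since the array files name no build. Alternatives were median centring, quantile normalization, a filter at 50, an offset of 16, a floor of 1, all probe sets of a gene, fits of 2 groups, no trend, the wash run or replicate number as a block, 1 wash run alone, leaving out each array, and leaving out sTX 4 and 5.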

Additional observations from a re-analysis of the deposited data

Results flagged for a closer look

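In 6 of 120 sets of 5 signals (40 members in 3 groups) 1 array stood apart from the other 4 by Dixon's test, and chance alone flags about 1 in 20 such sets. Slc25a30 read 325.0 in aTX 1 against 407.3 to 437.0 in the other rejecting grafts, and Slc25a35 read 91.6 in ctr 3 against 73.0 to 77.3 in the other controls. The remaining 4 were dim signals. Slc25a14 read 46.4 in aTX 3 (others 27.4 to 32.5), Slc25a18 read 9.0 in sTX 2 (others 1.5 to 3.6), Slc25a31 read 10.5 in ctr 4 (others 1.9 to 3.0) and Slc25a41 read 16.9 in aTX 1 (others 9.9 to 11.7).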

How the results depend on the processing

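No called member reversed its direction under any of the alternatives run. The counts of members in aTX against ctr stayed within 1.5 times of 27 lower and 4 higher under all of them, and so did the 25 lower in aTX against sTX. The methods' t-test at an unadjusted p of 0.001 gave 19 lower and 3 higher in aTX against ctr. It lost 9 of the 31 calls, those of Slc25a3, Slc25a4, Slc25a21, Slc25a34, Slc25a37, Slc25a44, Slc25a45, Slc25a46 and Slc25a51l1. The 4 members higher in aTX than in sTX became 2 with the methods' t-test at an unadjusted p of 0.001. The comparison of sTX with ctr moved most. The 12 lower members became 20 with median centring, which shifted the median change over all probe sets (log2) in this comparison from 0.09 to -0.11. They became 7 without the intensity trend, 4 with the methods' t-test at an unadjusted p of 0.001 and 1 after blocking on the wash run. The 2 higher members became 1 under each of these, with the methods' t-test after Benjamini-Hochberg adjustment, and without sTX 4 and 5. For most of these changes the cause was not tested. No single wash run held sTX and ctr, so this alternative gives no value there.

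Leaving out each array in turn gave 25 to 27 lower and 3 to 4 higher members in aTX against ctr, 23 to 25 and 3 to 5 in aTX against sTX, and 7 to 13 and 1 to 3 in sTX against ctr. The lowest count of 7 came without sTX 2. In sTX against ctr, Slc25a42 was lost without ctr 3 or sTX 2, Slc25a15 without ctr 2 or sTX 1, 2 or 4, and Slc25a1, Slc25a11, Slc25a16, Slc25a22 and Slc25a23 each without any of several arrays. In aTX against sTX, Slc25a35 was lost without aTX 2 or 3 or sTX 4 or 5, and Slc25a22 without aTX 3, 4 or 5 or sTX 1, 2, 3 or 5. With the replicate number as a block the counts were 27 and 4 in aTX against ctr, 0 calls were lost there and in aTX against sTX, and 2 (Slc25a1 and Slc25a16) were lost in sTX against ctr. Deviations of same-numbered arrays correlated between -0.019 and 0.027, above 0.1 in 0 of 15 pairs, so the numbers were not taken to pair kidneys. Dim members limit what can be seen: 9 of 40 stayed under a geometric mean of 50 in all groups, and 2 of them (Slc25a21 and Slc25a34) were called in aTX against ctr. Several probe sets of a gene were split between called and not called in 3, 2 and 5 of 12 genes in aTX against ctr, sTX against ctr and aTX against sTX, with 0 called in opposite directions.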

Other observations

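Genes known to respond to cAMP or to immediate early signals were read beside Slc25a25. Whether cAMP or another signal set their levels was not tested. They were chosen after the values of Slc25a25 had been seen, and no test was run on them. Nr4a1 read 752.3, 517.6, 990.4, 532.5 and 296.5 in ctr, at most 68.6 in sTX and 86.0 to 133.8 in aTX. As in Slc25a25, ctr 3 was the highest and ctr 5 the lowest control, and every aTX kidney lay above every sTX kidney. Sik1 read 54.0 to 207.4 in ctr, with the same arrays at the ends, against 20.0 to 34.8 in sTX and 31.5 to 44.4 in aTX. Per1 read 89.0 to 252.3 in ctr, 21.0 to 54.7 in sTX and 10.6 to 43.4 in aTX. Fos read 183.8 to 739.7 in ctr, 9.5 to 62.3 in sTX and 69.2 to 114.1 in aTX. In Per1 and Sik1 the grafts overlapped with each other. Crem and Nr4a3 in aTX did not lie below ctr. Crem read 196.5 to 272.2 in ctr, 138.2 to 180.9 in sTX and 272.8 to 387.1 in aTX. Nr4a3 reached 41.9 in ctr, 19.3 in sTX and 45.7 in aTX, where every kidney lay above every sTX kidney.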
